A study of Mus musculus with 2 samples.

Results

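The G2 and M phase genes are 40 genes whose products prepare and carry out cell division. They were matched by symbol to the rows of the deposited count matrix, and 40 of the 40 were present among its 17492 genes. The list was given by name and not by a measured threshold, although earlier results of these data were known when it was chosen. The values come from single-cell RNA sequencing of corneal epithelium, taken from C57BL/6J males 20 weeks old. The diabetic group had been given streptozotocin (STZ, 160 mg/kg), a toxin that destroys the insulin-producing β-cells of the pancreas, and counted as diabetic if blood glucose stayed over 250 mg/dL for the 12 weeks of the study. The control group had been given the sodium citrate buffer alone. Each group is 1 library from a pool of 4 corneas of 2 mice, so there is no replicate, no test between the groups was possible and every interval here covers counting error only.

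A cell that has copied its DNA enters mitosis when cyclin A2 and the B cyclins switch on the kinase Cdk1. Polo-like and Aurora kinases, kinesin motors and kinetochore proteins then build the spindle and attach the chromosomes to it. The spindle checkpoint holds back the anaphase promoting complex until every chromosome is attached, after which the complex marks the B cyclins for destruction and the cell divides. In the corneal epithelium, division takes place in the basal layer, and daughter cells move up through the wing cells to the squamous cells of the surface. Many genes of late cell cycle carry CCAAT boxes and a cell cycle genes homology region in their promoters, where a repressor complex of resting cells and activating complexes of dividing cells are known to bind.

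The matrix held 8203 diabetic and 9605 control cells with 171030636 and 196359192 unique molecular identifiers (UMIs, each of which marks 1 captured molecule), and 18 cell barcodes occurred in both libraries. Each cell carries 1 of 8 labels given by the authors, whose abbreviations are not explained in the sources used here. Median UMIs per cell were higher in the diabetic library for 6 of the 7 labels other than Immune. The gap was widest in TAC2 cells, at 24500 in diabetic and 16629 in control cells. Each cell was therefore thinned at random to 5000 UMIs, which left out 264 diabetic and 486 control cells that were shallower, and levels are given as CPM, the count of a gene per 1000000 UMIs of the thinned cells. A UMI stands for 1 molecule captured near its 3′ end, so these levels do not scale with gene length. Immune cells, 10 diabetic and 26 control, were not compared. Marker genes of each label were higher in that label than in the rest of its library in both libraries, by 70.6-fold in diabetic and 64.4-fold in control cells for TAC2, but by 2.17-fold and 2.84-fold for Basal. The TAC2 markers were Ube2c, Hist1h1b and Hist1h2ap. Ube2c is also a member of the list, so the TAC2 fold is not an independent check of that label. The Basal markers did not set that label apart, since they stood at 2242 CPM in diabetic and 2045 CPM in control Basal cells, and higher in LSC (4880 and 3862 CPM) and in TAC1 (2320 and 2259 CPM). Markers of the TAC1 label, which are genes of DNA synthesis, stood higher in TAC2 (438 and 474 CPM in diabetic and control cells) than in TAC1 itself (361 and 360 CPM). A gene counted as called if the ratio of its diabetic to its control CPM was 1.5 or more in either direction, if it had 50 or more summed counts and if the 95% Poisson intervals of the 2 levels did not overlap. That rule is one of size and not a test. A gene high in 1 library can reach 50 summed counts through that library alone, so the share called among members tested leans toward such genes.

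G2 and M phase transcripts were concentrated in TAC2 cells in both libraries. Of the 40 members, 40 had their highest level in TAC2, in diabetic and in control cells alike. The level in TAC2 over that in the other labels had a median of 45.8-fold in the diabetic and 48.2-fold in the control library, with a range of 2.65 to 198 in diabetic and 2.29 to 181 in control cells. TAC1 was the label with the next highest level for 25 members in diabetic and 31 in control cells. The labels were made from counts that include these genes, so this is a description of the label and not a result about it. Cells labelled TAC2 were 8.73% of thinned diabetic and 6.70% of thinned control cells, yet they held most of the list's counts, 22479 of 32395 in the diabetic and 17680 of 28778 in the control library.

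**Figure D1:**
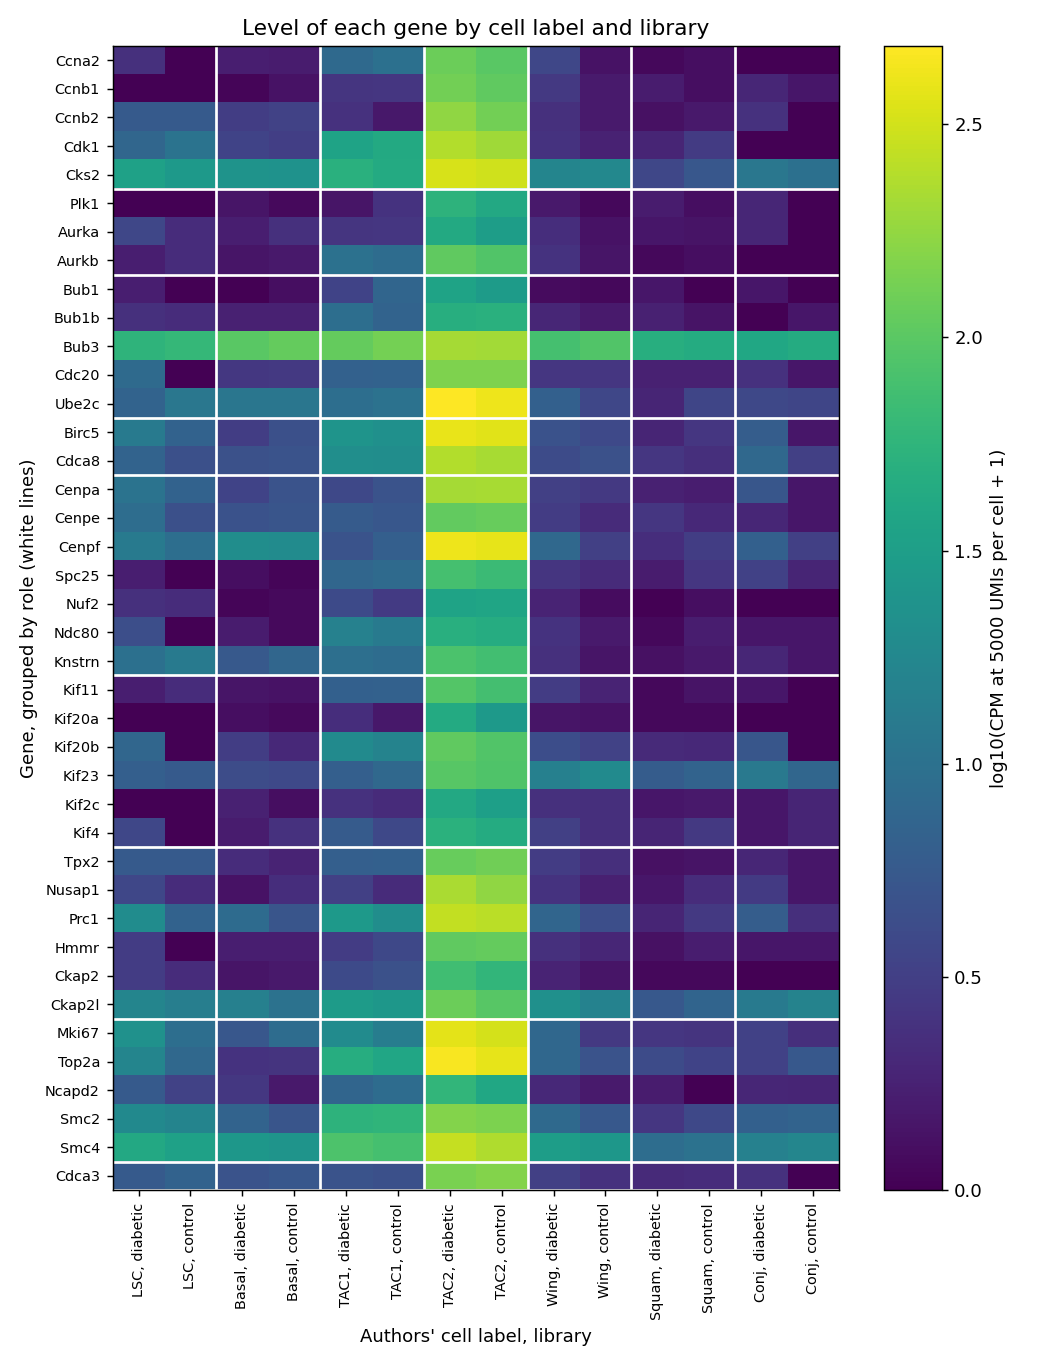
Level of the 40 genes in 7 cell labels of each library, as log10 of CPM plus 1 with every cell thinned to 5000 UMIs; rows are genes grouped by role and columns are label and library. The TAC2 columns are the brightest in 40 of 40 rows, and Bub3 is the row with the least contrast, 2.65-fold in diabetic and 2.29-fold in control cells between TAC2 and the other labels.

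The members were not equally restricted to TAC2. Nusap1, which bundles microtubules near chromosomes, reached 198-fold over the other labels in diabetic and 166-fold in control cells. Ccnb1, Ccnb2, Kif20a, Plk1 and Hmmr were over 100-fold in both libraries as well, for example Ccnb1 at 146-fold in diabetic and 181-fold in control cells. At the other end stood 7 members that were under 20-fold in at least 1 library. Bub3, which encodes a spindle checkpoint protein, was at 2.65-fold in diabetic and 2.29-fold in control cells. Ckap2l, a spindle protein, was at 7.38-fold and 7.29-fold. The condensin ATPases Smc4 (8.87-fold and 7.91-fold) and Smc2 (12.0-fold and 12.3-fold), the midzone kinesin gene Kif23 (13.4-fold and 9.31-fold), the Cdk subunit gene Cks2 (16.2-fold and 15.6-fold) and the kinetochore gene Ndc80 (18.1-fold and 22.6-fold) made up the rest. Because of Bub3, a sum over the list means different genes in different labels. Bub3 gave 3.25% of the list's counts in diabetic and 3.54% in control TAC2 cells, but 38.7% and 42.8% in Basal cells and 50.1% and 42.0% in Squam cells.

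Promoters are shown for the 4 members with the highest level in TAC2 and the 2 with the lowest level in TAC2 relative to the other labels, to set the most abundant members beside the least restricted ones. Sequences are from RefSeq on GRCm38.p6 and run 5′ to 3′ from 250 bases before the annotated start to 50 bases after it. Capitals mark the letters of a CCAAT box, or of the cell cycle genes homology region, which reads TTTGAA in its usual form and TTCGAA in a variant. Matches on the opposite strand are marked too and stand there as the reverse complement. The windows are, for Ube2c, chr2:164769679-164769978, plus strand, for Top2a, chr11:99024140-99024439, minus strand, for Cenpf, chr1:189688037-189688336, minus strand, for Birc5, chr11:117848987-117849286, plus strand, for Bub3, chr7:131560120-131560419, plus strand and for Ckap2l, chr2:129297163-129297462, minus strand. Bub3 has 2 entries, of which the first is shown.
Ube2c: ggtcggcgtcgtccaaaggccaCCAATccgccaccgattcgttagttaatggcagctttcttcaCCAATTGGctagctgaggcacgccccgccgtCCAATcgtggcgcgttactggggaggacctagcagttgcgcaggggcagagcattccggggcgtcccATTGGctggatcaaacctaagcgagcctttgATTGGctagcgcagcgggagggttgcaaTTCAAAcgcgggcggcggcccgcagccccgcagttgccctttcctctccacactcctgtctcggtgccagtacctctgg
Top2a: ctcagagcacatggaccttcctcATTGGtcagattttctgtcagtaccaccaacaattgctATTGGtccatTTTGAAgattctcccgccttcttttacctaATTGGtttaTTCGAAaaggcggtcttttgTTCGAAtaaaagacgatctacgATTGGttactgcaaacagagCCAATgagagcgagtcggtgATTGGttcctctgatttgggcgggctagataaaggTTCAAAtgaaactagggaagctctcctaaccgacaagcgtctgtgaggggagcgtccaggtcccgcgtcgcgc
Cenpf: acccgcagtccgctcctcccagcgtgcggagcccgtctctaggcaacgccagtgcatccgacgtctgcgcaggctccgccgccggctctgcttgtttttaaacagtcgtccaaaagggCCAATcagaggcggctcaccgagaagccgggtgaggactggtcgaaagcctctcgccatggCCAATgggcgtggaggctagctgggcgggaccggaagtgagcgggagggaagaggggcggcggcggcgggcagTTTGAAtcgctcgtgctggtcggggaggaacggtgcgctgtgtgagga
Birc5: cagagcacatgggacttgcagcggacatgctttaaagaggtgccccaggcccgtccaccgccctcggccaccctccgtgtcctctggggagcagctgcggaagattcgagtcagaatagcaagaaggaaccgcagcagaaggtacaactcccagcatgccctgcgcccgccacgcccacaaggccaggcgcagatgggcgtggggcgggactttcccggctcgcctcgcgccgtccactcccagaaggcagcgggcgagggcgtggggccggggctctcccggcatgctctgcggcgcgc
Bub3: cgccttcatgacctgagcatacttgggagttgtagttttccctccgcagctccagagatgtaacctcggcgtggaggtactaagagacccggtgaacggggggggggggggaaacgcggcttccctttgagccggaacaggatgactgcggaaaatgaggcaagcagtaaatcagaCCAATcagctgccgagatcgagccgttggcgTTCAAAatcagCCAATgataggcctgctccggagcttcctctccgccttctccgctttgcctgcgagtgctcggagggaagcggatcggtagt
Ckap2l: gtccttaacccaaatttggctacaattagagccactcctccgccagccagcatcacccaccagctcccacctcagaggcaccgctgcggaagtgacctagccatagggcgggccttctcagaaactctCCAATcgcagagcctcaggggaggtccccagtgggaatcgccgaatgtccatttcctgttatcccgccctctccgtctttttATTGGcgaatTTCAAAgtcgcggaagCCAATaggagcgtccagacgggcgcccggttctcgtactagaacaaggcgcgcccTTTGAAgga

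The window of Ube2c holds 6 CCAAT matches, of which 2 overlap, and 1 homology region match that begins 29 bases before the start. Top2a holds 6 CCAAT and 4 homology region matches, and Cenpf 2 and 1. Birc5 holds neither set of letters in this window. The least restricted members do hold them, with 2 CCAAT matches and 1 homology region match in Bub3 and 3 and 2 in Ckap2l. RefSeq windows were found for 35 of the 40 members, 37 windows in all, and none was used for Kif20a, Smc4, Tpx2, Ccna2 and Aurkb. The homology region letters occur in 30 of the 37 windows (81.1%), against 6316 of all 32851 promoter windows (19.2%). CCAAT occurs in 81.1% of the members' windows and in 37.4% of all windows, and at least 2 CCAAT matches in 56.8% and 11.7%. Windows with both motifs are 27 of 37 (73.0%), against 7.53% of all windows. A match is a description of the letters and not a bound site.

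Over all cells the members stood higher in the diabetic library, most of them by less than the rule of size asks. At 5000 UMIs per cell 39 of 40 members had a ratio above 1, and the median ratio was 1.35, a log2 ratio of 0.43 against 0.03 for all genes tested. The summed level of the list was 816 CPM in diabetic and 631 CPM in control cells, a ratio of 1.29 (1.27 to 1.31). By the rule 10 of 40 members were called higher and 0 lower, where 3.01% of the 12124 genes tested were called higher and 1.86% lower. Bub3 was the member below 1, at 91.2 CPM in diabetic and 97.2 CPM in control cells (0.938, 0.897 to 0.980). The interval of the ratio lay above 1 for 37 members and held 1 for Bub1 (1.21, 0.946 to 1.55) and Kif23 (1.03, 0.918 to 1.15).

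The members called higher over all cells came from the cyclins, the mitotic kinases, the kinesins, the spindle proteins and the condensins. Ccnb2 encodes a B cyclin (GRCm38 chromosome 9, 70407692 to 70421547) and had 16.4 CPM in diabetic and 9.67 CPM in control cells, 1.69-fold higher (1.498 to 1.91). The cyclin genes Ccnb1 (12.1 and 7.68 CPM, 1.58-fold) and Ccna2 (12.2 and 8.09 CPM, 1.51-fold) were called as well. Plk1, the polo-like kinase of mitotic entry (chromosome 7, 122159439 to 122169873), was at 5.09 and 3.07 CPM, 1.66-fold higher (1.33 to 2.07). Aurka, the Aurora kinase of the spindle poles, was at 4.53 and 2.79 CPM, 1.63-fold higher. These 5 are regulators that act from late G2 into mitosis. Nusap1 (chromosome 2, 119618298 to 119651244) was at 20.1 CPM in diabetic and 12.5 CPM in control cells, 1.61-fold higher (1.44 to 1.79). Ncapd2, a condensin subunit (chromosome 6, 125168007 to 125191701), was at 6.88 and 4.04 CPM, 1.70-fold higher (1.41 to 2.07). Kif20a, a kinesin of cell cleavage, had the largest ratio of the list, at 4.08 and 2.04 CPM (2.00, 1.54 to 2.61). Kif2c, a microtubule-depolymerizing kinesin of the centromere (4.41 and 2.90 CPM, 1.52-fold), and Ckap2, a microtubule-binding protein (7.03 and 4.63 CPM, 1.52-fold), complete the 10. The random draw of UMIs moved which members passed. Over 8 other ways of processing, Ccnb2, Plk1, Nusap1 and Ncapd2 kept their call in 7, Kif20a and Kif2c in 5, Aurka and Ckap2 in 4, and Ccnb1 and Ccna2 in 3. These ways are not independent of the main one. Leaving out cells above 10% mitochondrial counts called the same 10 members. That way, leaving out likely doublets and median-of-ratios scaling all used the main draw. In another draw 9 members were called, 5 of them the same, and the ratio of Kif20a was 1.245.

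Depth per cell and the label makeup of the library moved with that difference. On summed raw counts, without thinning, 32 of 40 members were called higher, where 5.98% of the 13846 genes tested were called higher and 2.8% lower, and the median ratio was 1.65. Thinning to the same depth brought the median to 1.35 and the count to 10. Giving both libraries the label shares of the control library brought the median to 1.15, with 33 members above 1 and 1 at a ratio of 1.5 or more, which was Kif20a. In that last comparison diabetic TAC2 cells, 8.73% of diabetic cells, are weighted as the 6.70% that they make up in the control library. The part that dissociation plays in these shares was not tested.

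**Figure D2:**
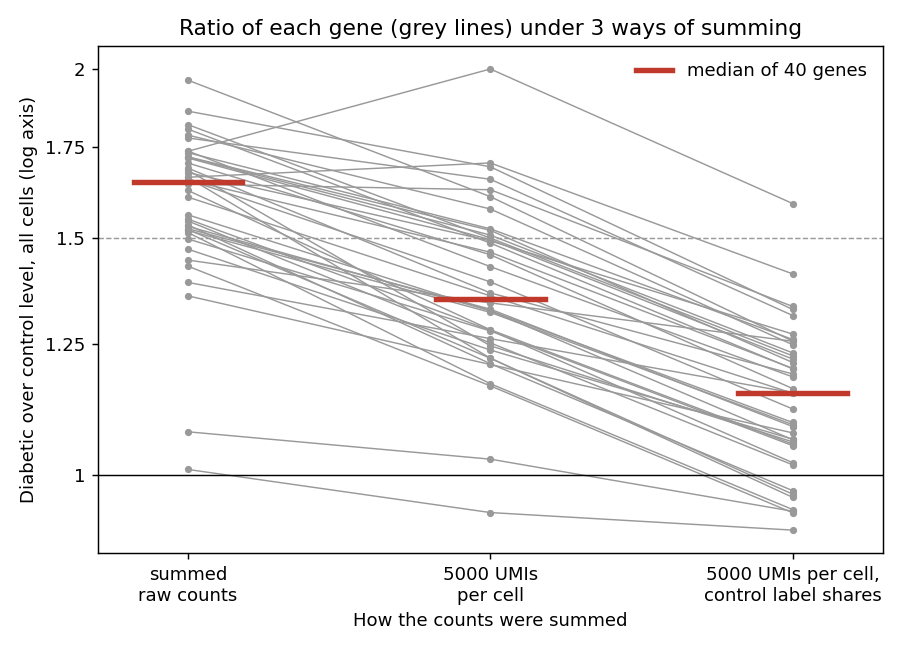
Ratio of diabetic over control level of each of the 40 genes (grey lines, log axis) over all cells, from summed raw counts, from cells thinned to 5000 UMIs, and from thinned cells with the label shares of the control library in both. The red bars are medians, which stand at 1.65, 1.35 and 1.15 from left to right.

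Genes of S phase were close to equal over all cells. Of 30 genes of DNA replication, among them the helicase subunits Mcm2 to Mcm7, 0 were called over all cells, their median log2 ratio was 0.02 and their summed level was 595 CPM in diabetic and 571 CPM in control cells (1.04, 1.02 to 1.06). By its median ratio a second list of G2 and M genes lay nearer to the first. Its summed level lay between those 2 lists in ratio, at 568 CPM in diabetic and 487 CPM in control cells (1.17, 1.15 to 1.19). Of its 62 genes 61 were present and 60 were tested, and the median log2 ratio was 0.38. By the rule 8 were called higher and 0 lower, where 3.01% and 1.86% of all genes tested were. Spag5, a spindle protein, was at 2.95 CPM in diabetic and 1.47 CPM in control cells (2.01, 1.47 to 2.75). Kif14, a kinesin of cell cleavage, was at 2.19 and 1.21 CPM (1.82, 1.28 to 2.60). Ncapg, a condensin subunit (5.57 and 3.42 CPM, 1.63-fold), and Ttk, a spindle checkpoint kinase (3.55 and 2.19 CPM, 1.62-fold), had the next largest ratios. The second list shares the cells, the depth and the label makeup of the first and is no separate experiment.

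Within TAC2 cells the difference was smaller. The summed level was 6487 CPM in 693 diabetic and 5787 CPM in 611 control cells, a ratio of 1.12 (1.10 to 1.14). Of the 40 members 33 had a ratio above 1 (37 without thinning and 35 with cells weighted equally). The median ratio of the 40 was 1.16, or 0.21 on the log2 scale against 0.01 for all genes tested there. The interval of the ratio lay above 1 for 20 members, held 1 for 20 and lay below 1 for 0. By the rule of size 1 member was called higher, Kif20a, where 1.45% of the 8208 genes tested were called higher, and 0 were called lower, where 0.743% were. Of the second list 1 gene was called, Wee1, the kinase that holds Cdk1 inactive, at 78.5 CPM in diabetic and 50.7 CPM in control TAC2 cells (1.55, 1.27 to 1.90). The S phase list in TAC2 was at 1741 CPM in diabetic and 1786 CPM in control cells (0.975, 0.940 to 1.01), with 0 of 30 called.

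**Figure D3:**
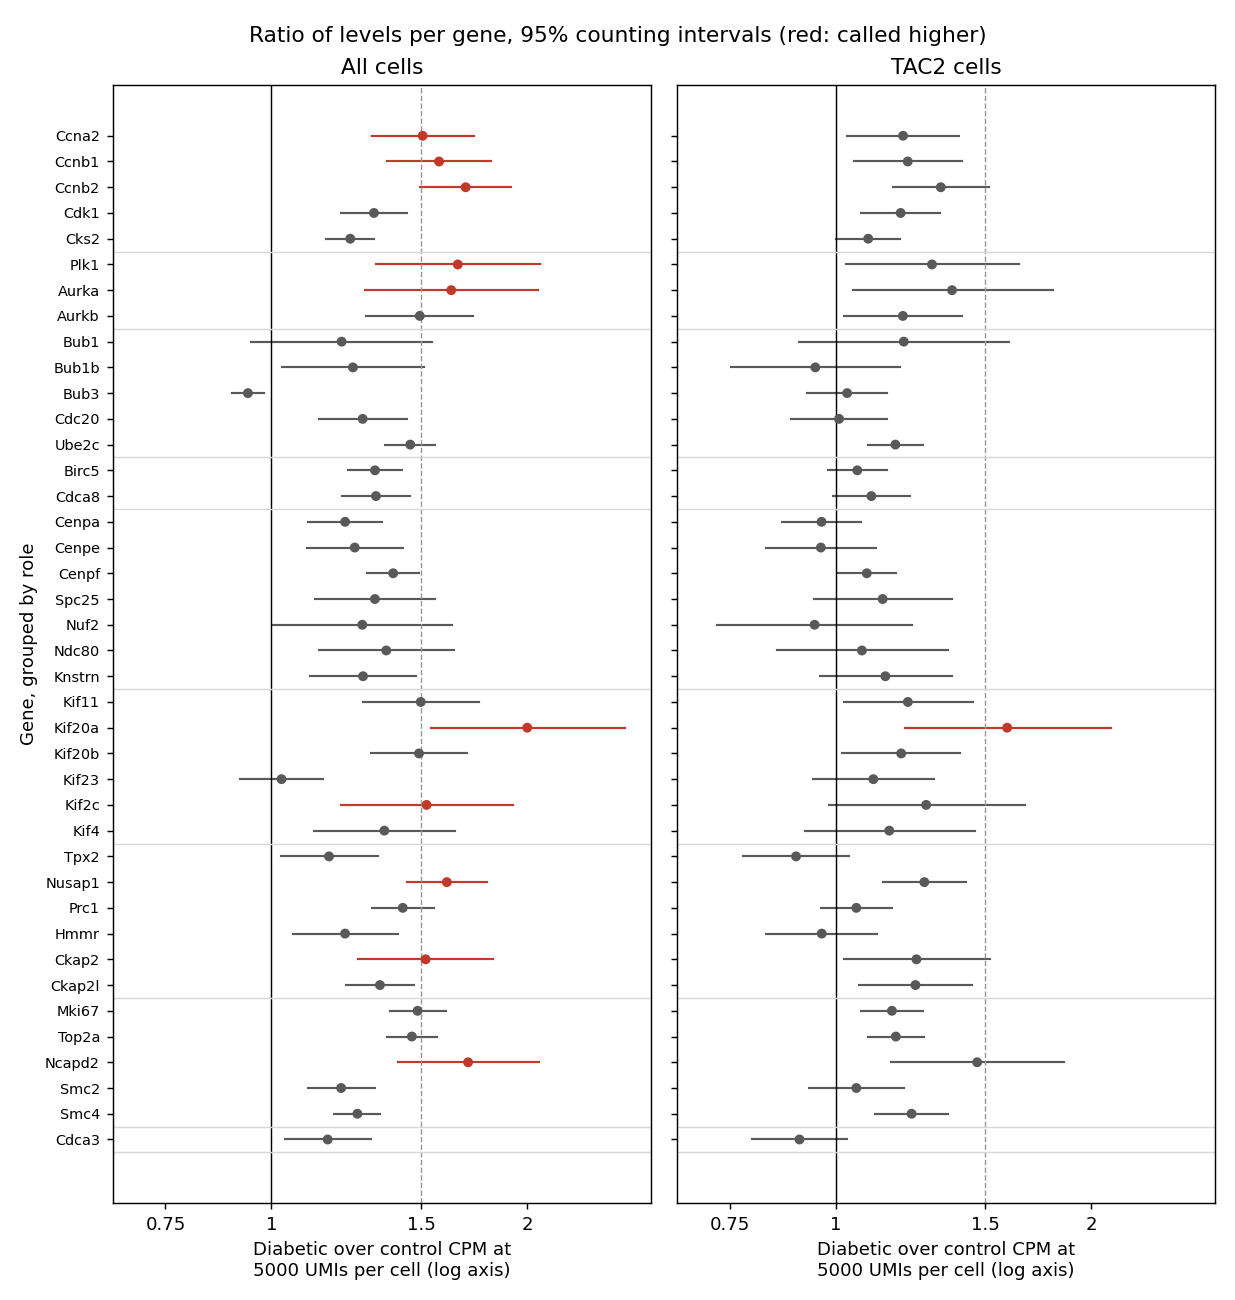
Ratio of diabetic over control CPM for each of the 40 genes over all cells (left) and in TAC2 cells (right), on a log axis, with 95% counting intervals; the dashed line is a ratio of 1.5 and red marks members called higher. Over all cells 10 of 40 are red and Bub3 lies below 1, and in TAC2 cells 1 of 40 is red and 7 lie below 1.

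Cyclins, with Cdk1 and its subunit, stood higher in diabetic TAC2 cells in 5 of 5 cases, with ratios from 1.09 to 1.33. Ccnb2 was at 171 CPM in diabetic and 129 CPM in control TAC2 cells (1.33, 1.17 to 1.51) and was detected in 50.1% and 41.7% of them. Ccnb1 was at 129 and 106 CPM (1.22, 1.05 to 1.41), and Ccna2 at 119 and 98.9 CPM (1.1999, 1.03 to 1.40). The kinase they activate followed the same order. Cdk1 was at 235 CPM in diabetic and 197 CPM in control TAC2 cells (1.19, 1.07 to 1.33). Cks2, a small protein that binds Cdk1, was at 334 and 306 CPM (1.09, 1.001 to 1.19). The mitotic kinases lay in the same range. Plk1 was at 53.1 and 40.9 CPM (1.30, 1.03 to 1.64), Aurka at 41.3 and 30.1 CPM (1.37, 1.05 to 1.80) and Aurkb, the Aurora kinase of the centromere, at 107 and 89.0 CPM (1.199, 1.02 to 1.41). For none of these 8 genes did the 2 levels differ by the rule of size.

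Among the genes of the spindle checkpoint and of the anaphase promoting complex, Ube2c was the one whose interval lay above 1. It encodes the ubiquitin-conjugating enzyme of that complex (chromosome 2, 164769898 to 164778822) and had the most UMIs of the list in TAC2, at 482 CPM in diabetic and 410 CPM in control cells (1.18, 1.09 to 1.27). Cdc20, which activates the complex, was at 147 and 145 CPM (1.01, 0.886 to 1.15). Checkpoint genes had intervals that held 1. Bub3 was at 211 and 205 CPM (1.03, 0.925 to 1.15), Bub1 at 34.6 and 28.8 CPM (1.202, 0.906 to 1.60) and Bub1b at 46.8 and 49.4 CPM (0.946, 0.753 to 1.19). The chromosomal passengers, which correct faulty attachments together with Aurkb, were Birc5 at 388 and 366 CPM (1.06, 0.978 to 1.15) and Cdca8 at 236 and 214 CPM (1.10, 0.992 to 1.22). Both intervals held 1.

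Of the 7 centromere and kinetochore genes 4 had a ratio above 1 and 3 below 1 in TAC2 (6 and 1 without thinning), and Cenpf was the member with an interval above 1. Cenpf, a large protein of the kinetochore, was at 412 CPM in diabetic and 378 CPM in control TAC2 cells (1.09, 1.01 to 1.18). Cenpa, the histone variant that marks the centromere, was at 208 and 216 CPM (0.962, 0.864 to 1.07), and Cenpe, a motor that carries chromosomes to the spindle equator, at 109 and 114 CPM (0.960, 0.828 to 1.11). The Ndc80 complex, which holds the microtubule, was split. Spc25 was at 76.2 and 67.1 CPM (1.14, 0.942 to 1.37), Ndc80 at 48.5 and 45.2 CPM (1.07, 0.852 to 1.35) and Nuf2 at 34.9 and 37.0 CPM (0.944, 0.724 to 1.23). Knstrn, a kinetochore adaptor, was at 83.1 and 72.7 CPM (1.14, 0.957 to 1.37).

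The kinesins had ratios above 1 in 6 of 6 cases. Kif20a was at 42.7 CPM in diabetic and 26.8 CPM in control TAC2 cells (1.59, 1.21 to 2.11), from 148 and 82 counts. Its call rested on the draw, since another draw gave 0.974, raw counts 1.17 and cells weighted equally 1.17. Kif11, the motor that separates the spindle poles, was at 90.3 and 74.3 CPM (1.22, 1.02 to 1.45) and Kif20b, a kinesin of cell cleavage, at 106 and 88.7 CPM (1.19, 1.02 to 1.40). The others had intervals that held 1. They were Kif23 (96.4 and 87.1 CPM, 1.11, 0.940 to 1.31), Kif2c (41.0 and 32.1 CPM, 1.28, 0.981 to 1.67) and Kif4, a kinesin bound to chromosomes (51.1 and 44.2 CPM, 1.16, 0.919 to 1.46).

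Among the spindle microtubule proteins Nusap1 differed most, at 218 CPM in diabetic and 172 CPM in control TAC2 cells (1.27, 1.14 to 1.42), and was detected in 54.8% and 43.0% of cells. Ckap2 (71.3 and 57.3 CPM, 1.24, 1.02 to 1.52) and Ckap2l (119 and 95.6 CPM, 1.24, 1.07 to 1.45) lay close to it. Prc1, which bundles the microtubules of the midzone, was at 270 and 255 CPM (1.06, 0.960 to 1.16). Tpx2, which activates Aurka on the spindle, had the lowest ratio of the list. It was at 113 CPM in diabetic and 126 CPM in control TAC2 cells (0.898, 0.778 to 1.04), with an interval that held 1. Hmmr, a spindle protein that also binds hyaluronan, was at 106 and 111 CPM (0.963, 0.828 to 1.12), and Cdca3, which helps to destroy the kinase Wee1, at 139 and 153 CPM (0.906, 0.796 to 1.03).

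Genes of chromosome structure were above 1 in 5 of 5 cases. Top2a, the topoisomerase that untangles sister chromatids (chromosome 11, 98992943 to 99024189), was at 453 CPM in diabetic and 385 CPM in control TAC2 cells (1.18, 1.09 to 1.27). Mki67, the coat protein of mitotic chromosomes and a common marker of dividing cells (chromosome 7, 135689784 to 135716361), was at 377 and 324 CPM (1.16, 1.07 to 1.27). The condensin subunits spread more widely. Ncapd2 was at 57.1 and 38.95 CPM (1.47, 1.16 to 1.86), Smc4 at 279 and 227 CPM (1.23, 1.11 to 1.36) and Smc2 at 151 and 143 CPM (1.06, 0.929 to 1.203).

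In TAC2 the members differed more in how many cells they were detected in than in how many UMIs each such cell held. The share of cells with at least 1 UMI was higher in diabetic cells for 36 of 40 members, and the mean number of UMIs per positive cell was higher for 15 of 40. Top2a was detected in 69.7% of diabetic and 57.0% of control TAC2 cells, with 3.25 and 3.38 UMIs per positive cell. Cdk1 was detected in 56.9% and 46.2% of cells, with 2.07 and 2.13 UMIs, and Mki67 in 70.3% and 62.8%, with 2.68 and 2.58. Ube2c had more of both, in 63.9% and 58.1% of cells with 3.77 and 3.53 UMIs.

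Over the list as a whole, control TAC2 cells more often held few G2 and M UMIs. The median TAC2 cell had 29 UMIs of the 40 genes in the diabetic and 24 in the control library, from a median of 17 and 15 detected members. Cells with fewer than 10 such UMIs made up 13.4% of diabetic TAC2 cells (11.0 to 16.2) and 23.1% of control TAC2 cells (19.8 to 26.6). Cells with 10 or more were 86.6% and 76.9%, a ratio of 1.13 (1.04 to 1.21). At 40 UMIs the intervals overlapped, and at 80 the order was turned round. Cells with 40 or more were 32.9% of diabetic and 29.3% of control TAC2 cells (1.12, 0.889 to 1.42). Cells with 80 or more were 8 cells or 1.15% (0.4997 to 2.26) in the diabetic and 23 cells or 3.76% (2.40 to 5.59) in the control library, with intervals apart. Original depth went with this score, although each cell was thinned to the same total. Median UMIs before thinning were 15850 for diabetic and 14641 for control TAC2 cells with fewer than 10, and 27415.5 and 22966 for those with 60 or more. The part of depth in these shares was not tested beyond the thinning.

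**Figure D4:**
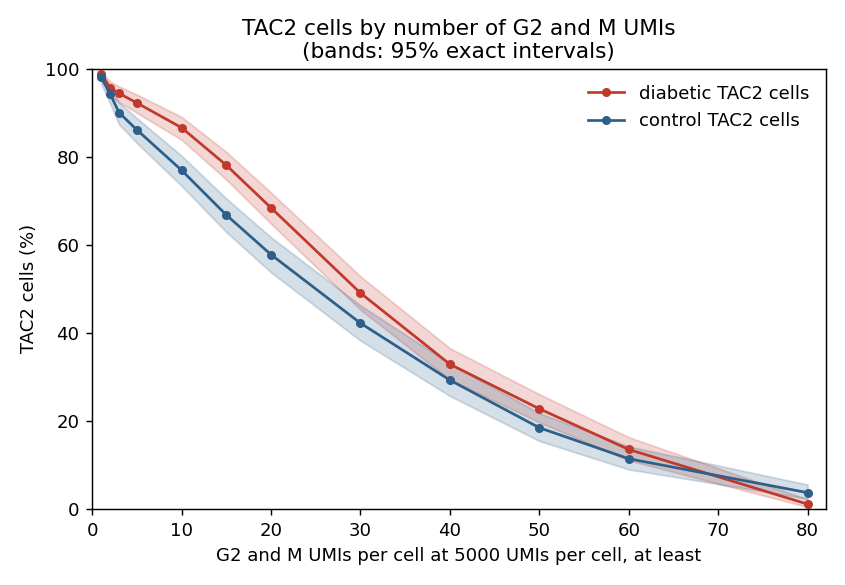
Share of TAC2 cells (y axis, percent) with at least a given number of G2 and M UMIs (x axis) at 5000 UMIs per cell, for the diabetic and the control library, with 95% exact binomial bands. The diabetic line runs above the control line at 10 UMIs (86.6% and 76.9%) and at 20 (68.4% and 57.8%), and the bands overlap at 40.

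TAC2 cells were also split by their S phase transcripts. Cells with 10 or more G2 and M UMIs and fewer than 5 S phase UMIs were 33.6% of diabetic and 30.8% of control TAC2 cells, and cells with 10 or more and 5 or more were 53.0% (49.2 to 56.7) and 46.2% (42.1 to 50.2). Cells with fewer than 10 G2 and M UMIs and 5 or more S phase UMIs were 3.90% (2.58 to 5.62) of diabetic and 9.33% (7.14 to 11.9) of control TAC2 cells, which are 27 and 57 cells. Cells below both limits were 9.52% and 13.7%. Of the 4 classes, the one below the G2 and M limit and above the S phase limit had intervals that did not overlap.

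Counted over all cells, the share of cells that carry the list depended on how many UMIs were asked for. Cells with at least 2 G2 and M UMIs were 37.3% of diabetic and 35.0% of control cells, a ratio of 1.07 (1.01 to 1.13). With at least 5 the shares were 13.0% and 10.1% (1.29, 1.15 to 1.46), with at least 10 they were 8.53% and 5.87% (1.45, 1.24 to 1.70), and with at least 20 they were 5.98% and 3.88% (1.54, 1.27 to 1.87). At the lowest limits Bub3 enters strongly, which had a UMI in 34.4% of diabetic and 36.6% of control cells. Of the cells with 20 or more UMIs TAC2 held 474 of 475 in the diabetic and 353 of 354 in the control library.

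**Figure D5:**
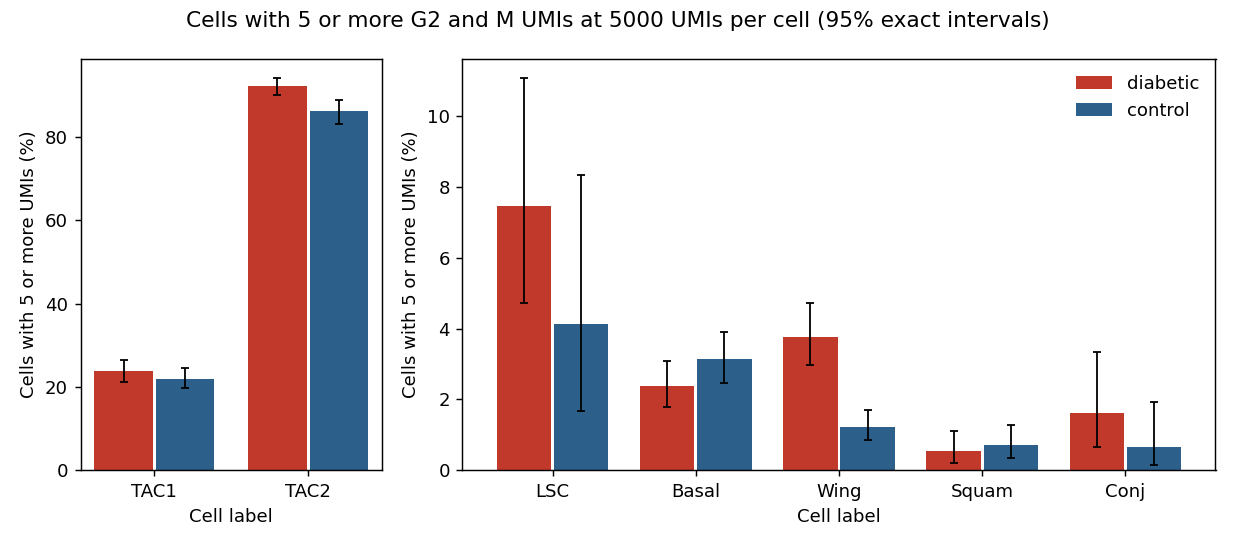
Share of cells with 5 or more G2 and M UMIs at 5000 UMIs per cell, by label, with the diabetic library in red left of the control library in blue and 95% exact binomial intervals; the left panel has its own scale. TAC2 stands at 92.2% and 86.1%, and among the labels of the right panel Wing is the label whose intervals are apart, at 3.77% and 1.23%.

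In TAC1 and Basal cells the summed level of the members was close to equal in the libraries. The summed level in TAC1 was 649 CPM in diabetic and 632 CPM in control cells (1.03, 0.979 to 1.08). Of 27 members tested there 0 were called higher and 1 lower, where 0.984% and 0.941% of genes were, and 14 had a ratio above 1. The member called was Bub1, at 2.44 CPM in diabetic and 6.48 CPM in control TAC1 cells (0.376, 0.179 to 0.733), from 12 and 39 counts. It kept its call in 3 of 8 alternatives, with a ratio of 0.611 in another draw, 0.711 with cells weighted equally, 0.784 without thinning and 1.05 at 2500 UMIs per cell. In Basal cells the summed level was 252 and 260 CPM (0.972, 0.924 to 1.02), 9 of 18 members tested had a ratio above 1, and 1 was called higher and 1 lower, where 2.2% and 1.76% of genes were. Prc1 was called higher, at 7.77 CPM in diabetic and 4.14 CPM in control Basal cells (1.87, 1.31 to 2.71), and kept its call in 6 of 8 alternatives. Mki67 was called lower, at 4.40 and 7.95 CPM (0.554, 0.386 to 0.787), and kept it in 4.

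Bub3, which gave a large part of the list's counts outside TAC2, was lower in diabetic Basal, TAC1 and Wing cells, with intervals below 1. It was at 97.8 CPM in diabetic and 111 CPM in control Basal cells (0.880, 0.812 to 0.954). In TAC1 it was at 112 and 130 CPM (0.859, 0.769 to 0.959), and in Wing cells at 76.8 and 88.4 CPM (0.868, 0.791 to 0.952). None of these passed the rule of size. In Squam cells it was at 46.9 and 43.3 CPM (1.08, 0.924 to 1.27).

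In LSC, Squam and Conj cells few members had enough counts at 5000 UMIs per cell. In LSC cells the summed level was 348 CPM in 295 diabetic and 260 CPM in 169 control cells (1.34, 1.14 to 1.57), but of 3 members tested 0 were called, where 1.63% of genes were called higher and 2.45% lower. Bub3 was at 54.9 and 60.4 CPM (0.910, 0.633 to 1.32), Smc4 at 40.7 and 33.1 CPM (1.23, 0.772 to 2.00) and Cks2 at 33.2 and 27.2 CPM (1.22, 0.730 to 2.10). All 3 intervals held 1. In Squam cells the summed level was 93.7 CPM in diabetic and 103 CPM in control cells (0.907, 0.815 to 1.01), and 0 of 5 members tested were called, where 2.07% of genes were called higher and 3.99% lower. Smc4 was at 8.10 and 9.34 CPM (0.867, 0.596 to 1.254) and Kif23 at 5.05 and 6.23 CPM (0.810, 0.504 to 1.29). These levels come from 53 and 72 counts of Smc4 and 33 and 48 of Kif23. In Conj cells the summed level was 148 CPM in diabetic and 119 CPM in control cells (1.247, 1.06 to 1.47), and 0 of 3 members tested were called, where 2.01% of genes were called higher and 1.21% lower. There Bub3 was at 39.1 and 43.8 CPM (0.892, 0.659 to 1.21), Smc4 at 14.0 and 15.9 CPM (0.876, 0.521 to 1.46) and Ckap2l at 11.6 and 15.04 CPM (0.773, 0.442 to 1.33).

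Wing cells were the label outside TAC2 in which several members were called higher at 5000 UMIs per cell. Their summed level was 246 CPM in 1909 diabetic and 211 CPM in 2773 control cells (1.17, 1.11 to 1.23), and without the 7 members under 20-fold in TAC2 the ratio was 1.87. Of 14 members tested 5 were called higher and 0 lower, where 2.1% of 9955 genes were called higher and 1.81% lower. The share of tested members that was called depended on the minimum of summed counts. With a minimum of 10 counts 6 of 37 members tested in Wing cells were called higher, where 2.06% of genes were. Mki67 was at 6.91 CPM in diabetic and 1.80 CPM in control Wing cells (3.83, 2.39 to 6.34), from 66 and 25 counts. Cenpf was at 7.12 and 2.24 CPM (3.19, 2.05 to 5.04). Top2a was at 6.91 and 3.82 CPM (1.81, 1.24 to 2.65). These 3 and Prc1, at 6.496 and 3.46 CPM (1.88, 1.27 to 2.79), kept their call in 8 of 8 alternatives. Ube2c, at 5.66 and 2.74 CPM (2.06, 1.34 to 3.21), kept its call in 2 of 8.

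Wing cells with at least 5 G2 and M UMIs were 72 of 1909 diabetic cells, 3.77% (2.96 to 4.73), and 34 of 2773 control cells, 1.23% (0.851 to 1.71). The ratio of the shares was 3.08 (1.73 to 5.56). Squam cells, the label with the lowest summed level of the list, had such cells at 0.535% in diabetic and 0.714% in control. The median depth of all Squam cells was 21047 and 22382 UMIs, against 20039 and 19899.5 UMIs for all Wing cells. The Squam cells with 5 or more G2 and M UMIs, 7 diabetic and 11 control, had medians of 30242 and 44490 UMIs before thinning. The intervals of the shares in Wing and Squam cells were apart in the diabetic library and overlapped in the control library. Doublet scores and marker levels differed between these groups of Wing cells. Of the 72 diabetic cells 11 were likely doublets (15.3%), and of the 34 control cells 21 were (61.8%), with median totals before thinning of 22977 and 42406.5 UMIs. Markers of the Basal label were at 956 CPM in those diabetic and 800 CPM in those control cells, against 473 and 401 CPM in the other Wing cells and 2292 and 2126 CPM in cells labelled Basal. Markers of the Wing label were at 1194 and 1065 CPM, against 1190 and 1369 CPM in the other Wing cells. Squam markers were at 1269 and 2082 CPM, against 2433 and 1769 CPM in the other Wing cells. Conj markers were at 822 and 1106 CPM, against 2201 and 1881 CPM. LSC markers were close to 72.3 CPM in both groups of diabetic Wing cells, and in control Wing cells were at 171 CPM in those with 5 or more G2 and M UMIs, against 58.4 CPM in the others. The part of these cells' makeup in the shares was not tested. Without likely doublets the shares were 3.53% in diabetic and 0.524% in control Wing cells, a ratio of 6.74. On raw counts, at unmatched depth, they were 45.5% and 42.3%.

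On summed raw counts, at unmatched depth, more members had enough counts in each label and the calls differed from those at 5000 UMIs. In LSC cells 11 of 17 members tested were called higher and 0 lower, where 2.63% of genes were called higher and 2.61% lower. The summed level there was 479 CPM in diabetic and 257 CPM in control cells (1.87, 1.70 to 2.05). Mki67 was at 29.5 CPM in diabetic and 5.05 CPM in control LSC cells (5.85, 3.17 to 12.0), from 136 and 11 counts, and Top2a at 26.9 and 5.51 CPM (4.89, 2.70 to 9.72), from 124 and 12. The median LSC cell had 12284 UMIs in the diabetic and 9259.5 in the control library. At 5000 UMIs per cell, 7 of 295 diabetic and 0 of 169 control LSC cells held 10 or more G2 and M UMIs. The 1 diabetic LSC cell with 20 or more had 70585 UMIs before thinning. The part of these few cells in the raw levels and calls was not tested.

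In Squam cells the raw counts ran the other way. Of 22 members tested 0 were called higher and 8 lower, where 1.79% of genes were called higher and 7.75% lower, and 20 of the 22 had a ratio below 1. The summed level was 98.7 CPM in diabetic and 121 CPM in control cells (0.819, 0.782 to 0.857). Cenpf was at 1.01 CPM in diabetic and 4.43 CPM in control Squam cells (0.229, 0.151 to 0.336), from 31 and 173 counts, and Cks2 at 3.4986 and 6.998 CPM (0.4999, 0.396 to 0.627). Likely doublets were 6.19% of diabetic and 9.67% of control Squam cells, and their part in these levels was not tested.

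Conj cells had 4 of 13 members called higher and 0 lower on raw counts, where 2.52% of genes were called higher and 1.95% lower. These were Birc5 (4.84 CPM in diabetic and 0.990 CPM in control cells, 4.89, 2.53 to 10.4), Cenpf, Cdca8 and Mki67. In Wing cells 11 of 39 were called higher and 0 lower, where 3.93% and 2.59% were. In TAC2 cells 0 of 40 were called in either direction, where 2.21% and 1.35% were. In TAC1 cells 1 of 39 was called higher and 0 lower, where 1.7% and 1.52% were. It was Knstrn, at 10.6 and 6.88 CPM (1.54, 1.24 to 1.92), and Bub1 was not called. In Basal cells 1 of 25 was called higher and 2 lower, where 2.63% and 2.38% were. Prc1 was again the one higher (1.86, 1.52 to 2.29), and the lower ones were Birc5 (0.653, 0.486 to 0.875) and Cenpa (0.624, 0.460 to 0.841) and did not include Mki67.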

How the data were processed

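The matrix that the authors deposited holds whole UMI counts with no normalization, and a deposited table gives each cell's group and the authors' label. Libraries were made with a Chromium Next GEM 3′ kit, per the labels' protocols. The submitters' processing notes name Cell Ranger 5.0.0, Seurat 4 and mm10 but say nothing of their roles, and how cells were filtered is not given in the sources used here. UMI totals of cells started at 520, and mitochondrial shares reached 29.3%.

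Cells were thinned without replacement to 5000 UMIs and shallower ones left out. Levels carry exact 95% Poisson intervals, ratios of levels conditional binomial ones and shares Clopper-Pearson ones, all for counting error only, and the limits of a ratio of 2 shares were taken from opposite ends of their intervals. With 1 library per group no test was run. Scrublet marked 0 cells by its automatic threshold, so likely doublets are the top 8% of scores, 683 diabetic and 791 control cells, and all were kept in the values given unless stated. They were 19.1% of diabetic and 17.8% of control TAC2 cells, the largest share of any label, against 4.66% and 3.59% of Basal cells. Leaving them out thus removes a larger part of TAC2 than of other labels. Whether the marked cells are doublets was not tested. Markers of other cell types were checked: of 4 fibroblast markers 1 is in the matrix, with 2.26 CPM in diabetic and 0.776 CPM in control TAC2 cells, and of 4 melanocyte markers 3 are, with 5.20 and 6.44 CPM. In LSC cells the fibroblast marker stood at 23.7 CPM in diabetic and 13.3 CPM in control cells, 41.5-fold and 172-fold over the other labels.

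All 40 members are reported with values in TAC2, and in other labels those called, or else the 3 with most counts. The members and lists were chosen with earlier results of these data known. Gene positions came from GENCODE on GRCm38, which is the same assembly as mm10. Promoters came from RefSeq. Tools were scanpy 1.11.5, scipy 1.17.1 and Python 3.11.15.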

Additional observations from a re-analysis of the deposited data

Results flagged for a closer look

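Mki67 went opposite ways in 2 labels. In Basal cells its ratio of diabetic over control level was 0.554 (0.386 to 0.787), from 51 and 94 counts, and in Wing cells it was 3.83 (2.39 to 6.34), from 66 and 25 counts. The difference between the labels was not tested, since each library is 1 pool. Over 8 alternatives the Basal ratio ranged from 0.553 to 0.934 and passed the rule of size in 4, and the Wing ratio ranged from 2.11 to 6.19 and passed in 8.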

How the results depend on the processing

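Among called members, and among summed levels whose interval lay to one side of 1, directions held under the alternatives tried except in 2 members. Kif20a in TAC2 had a ratio of 0.974 in another random draw, and Bub1 in TAC1 a ratio of 1.05 at 2500 UMIs per cell. Members that were not called went through fewer alternatives, and some with an interval to one side of 1 changed direction. Bub3 over all cells (0.938) was at 1.01 on raw counts. With the label shares of the control library, Cenpa (1.22) came to 0.963, Tpx2 (1.17) to 0.943, Hmmr (1.22) to 0.968 and Cdca3 (1.16) to 0.938. In TAC2 some members whose interval held 1 turned as well. With cells weighted equally, Cenpa (0.962) came to 1.04 there and Bub1b (0.946) to 1.18. For the summed level over all cells (1.29), the ratio was 1.22 at 2500 UMIs, 1.33 at 10000 UMIs, 1.502 without thinning, 1.27 without likely doublets (1.266) and with median-of-ratios scaling (1.268), 1.37 without Bub3 and Smc4, 1.40 without the 7 members under 20-fold in TAC2, and 1.09 with the label shares of the control library. In TAC2 (1.12) it was 1.06 at 2500 UMIs and 1.09 without likely doublets, and in Basal cells (0.972, with an interval that held 1) it turned to 1.03 without Bub3 and Smc4 and 1.01 in another draw. In Wing cells (1.17) it was 1.253 at 2500 UMIs, 1.43 without Bub3 and Smc4 and 1.87 without the 7. In LSC cells (1.34) it was 1.70 at 2500 UMIs, 1.87 without thinning and 1.66 without the 7, in Squam cells (0.907) 0.764 without Bub3 and Smc4, and in Conj cells (1.247) 1.61 without Bub3 and Smc4 and 2.52 without the 7. Other alternatives lowered the Conj ratio within its counting interval. It was 1.06 without likely doublets, 1.10 at 2500 UMIs, 1.12 at 10000 UMIs and 1.17 in another draw. The share of all genes tested that the same setting called stands after each count. Members called higher over all cells (10, 3.01%) were 1 at 2500 UMIs (2.31%), 32 without thinning (5.98%), 29 at the lower of the ratio limits tried (7.4%) and 1 at the upper, a ratio of 2 (1.14%). In TAC2 (1, 1.45%) they were 0 at 2500 (0.847%) and 10000 UMIs (1.72%), without thinning (2.21%), with cells weighted equally (0.769%), in another draw (1.66%) and at a ratio of 2 (0.548%), and 4 at the lower ratio limit (2.42%). In Wing cells (5, 2.1%) they were 11 without thinning (3.93%), 3 at a ratio of 2 (0.693%) and 0 with a minimum of 200 counts (1.48%). That minimum left 5 Wing members to test, none of them among those called before, so it could keep no call. In LSC cells (0, 1.63%) they were 1 at 10000 UMIs (2.29%) and 11 without thinning (2.63%), and in Conj cells (0, 2.01%) 4 without thinning (2.52%) and 1 with a minimum of 10 counts (1.55%). Members called lower in Squam cells (0, 3.99%) were 2 at 10000 UMIs (4.87%) and 8 without thinning (7.75%). The median log2 ratio over all cells (0.43) was 0.72 without thinning. The ratio of shares of cells over all cells (1.07 for 2 or more UMIs) was 1.14 at 2500 UMIs, 1.196 without Bub3 and Smc4, 1.2496 without the 7, and 1.004, 1.13 and 1.29 for 1, 3 and 5 or more UMIs. The ratio of shares in Wing cells (3.08 for 5 or more UMIs) was 1.47 at 10000 UMIs, 1.08 without thinning, 6.74 without likely doublets, and 1.30 and 8.72 for 3 and 10 or more UMIs. Of the values for these results 145, some of them given above, stayed close to the main value. For ratios this meant inside the counting interval and for counts of members within 1.5 times. For a median log2 ratio it meant between the lower and upper quartiles of the members' ratios. The alternatives for Wing, LSC, Squam and Conj cells and the set without the 7 members were chosen after seeing the data. The cause of these moves was not tested. No paired analysis was possible because each group is 1 library and its number only names it.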

Other observations

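Genes of DNA replication stood higher in diabetic than in control LSC cells. The S phase list summed to 619 CPM in 295 diabetic and 391.7 CPM in 169 control LSC cells (1.58, 1.39 to 1.80), and 12 of the 12 genes tested had a ratio above 1. Lig1, the ligase that joins fragments of new DNA, was called higher there, 3.76-fold over control (1.85 to 8.62). It was the 1 gene called of the 12, where 1.63% of all genes tested in LSC cells were called higher. Of 23 genes of this list tested in Basal cells, 1 was called higher and 1 lower, where 2.2% and 1.76% of genes were. In Basal cells Lig1 was at 10.01 CPM in diabetic and 5.92 CPM in control cells (1.69, 1.246 to 2.31), while Hells, a chromatin remodeller of replicating cells, was at 6.56 and 10.9 CPM (0.601, 0.447 to 0.804).

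Of the second list of G2 and M genes, Tacc3, a spindle protein, was called higher in diabetic Basal cells (3.71 and 1.69 CPM, 2.19, 1.26 to 3.94) and in diabetic Wing cells (4.09 and 1.95 CPM, 2.10, 1.252 to 3.56). Racgap1, a regulator of cell cleavage, was called lower in diabetic Squam cells, at 5.96 and 11.0 CPM (0.541, 0.360 to 0.799). Of the second list, 2 of 15 genes tested in Basal cells were called higher, where 2.2% of all genes tested were. In Wing cells 1 of 16 was called higher, where 2.1% were. In Squam cells 1 of 10 was called lower, where 3.99% were. The genes named here were chosen after their values were seen.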
